A study of Mus musculus with 10 samples.

Results

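The genes described here build the nuclear pore and carry RNA and protein through it. They were taken by symbol alone: every gene of the table whose symbol begins with Nup, Ipo or Xpo followed by a digit, or with Nxf, Nxt, Thoc or Kpn. The rule found 51 genes among the 15507 in the table, and all 51 passed the filter on low counts, beside 15389 genes overall. They lie on 18 chromosomes, and 5 of them (Nup62cl, Nxf2, Nxf3, Nxt2 and Thoc2) are on the X chromosome. The name of the group is a label for these symbols, and the rule used no measured value.

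Germ cells were prepared with collagenase and trypsin from testes of 45-day-old mice, and poly(A) RNA was sequenced as 1 library per mouse. The WT group held 5 wild type mice. The KI group held 5 homozygous GRTH knock-in mice, in which the human GRTH gene carries an arginine-to-histidine missense mutation. GRTH, also named DDX25, is a DEAD-box RNA helicase of the testis that takes part in the export and storage of messenger RNA in germ cells. The study asked how germ cell transcripts differ when the phosphorylated form of this helicase is missing. The preparations mix spermatogonia, spermatocytes and spermatids, so that fewer cells of a type and less RNA per cell cannot be told apart in any value below.

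Traffic between nucleus and cytoplasm passes through nuclear pore complexes, rings of nucleoporins set in the nuclear envelope with a channel lined by phenylalanine-glycine repeats. Importins carry proteins inward and exportins carry cargo outward, and the small GTPase Ran sets the direction because its GTP-bound form is made on chromatin by Rcc1 and spent in the cytoplasm with the help of Rangap1. Most messenger RNA takes another route: the THO complex loads export adaptors during transcription, the adaptors hand the RNA to the Nxf1-Nxt1 receptor, and a DEAD-box helicase frees it at the cytoplasmic face of the pore. In spermatids this traffic also serves the exchange of histones for transition proteins and protamines, and long-lived transcripts are stored in the cytoplasm before they are translated.

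Promoters of some of the genes on which the results turn are shown first, each at the start farthest upstream. Each is 300 bases running from 250 before to 50 after the transcription start. They come from the RefSeq table for build GRCm38.p6, the patch release of the build that the authors name mm10. Of the 51 genes, 39 matched this table, with 49 promoters between them. Nup35 and Thoc1, which fell in KI, had no match, so no promoter is shown or counted for them. Capitals mark TGACG, the core of the cAMP response element, and GGGCGG, the GC box, each on either strand. Nup98 (chr7:102210117-102210416, minus strand), a nucleoporin called lower in KI, has 3 copies of TGACG and 1 of GGGCGG, Ipo5 (chr14:120910944-120911243, plus strand), the most abundant member per length, has 1 and 4, and Kpna7 (chr5:145009587-145009886, minus strand), the member that rose, has 1 and 0. Rcc1 (chr4:132345701-132346000, minus strand) and Rangap1 (chr15:81729870-81730169, minus strand), the exchange factor and the activator of Ran, are not members but are partner genes with larger falls than any member, and they have 0 and 1 copies of TGACG and 1 copy of GGGCGG each.
Nup98: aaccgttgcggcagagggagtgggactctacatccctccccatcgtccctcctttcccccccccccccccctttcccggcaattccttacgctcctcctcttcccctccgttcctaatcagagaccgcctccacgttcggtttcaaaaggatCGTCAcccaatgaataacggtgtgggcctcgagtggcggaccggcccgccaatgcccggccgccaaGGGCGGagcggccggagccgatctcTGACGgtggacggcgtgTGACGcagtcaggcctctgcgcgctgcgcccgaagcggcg
Ipo5: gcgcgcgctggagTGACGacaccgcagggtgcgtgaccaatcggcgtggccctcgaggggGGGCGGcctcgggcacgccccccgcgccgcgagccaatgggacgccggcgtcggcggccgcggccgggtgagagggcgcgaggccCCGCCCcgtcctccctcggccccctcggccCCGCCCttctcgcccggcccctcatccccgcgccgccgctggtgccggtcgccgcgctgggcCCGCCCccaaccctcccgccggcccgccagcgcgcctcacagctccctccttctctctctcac
Kpna7: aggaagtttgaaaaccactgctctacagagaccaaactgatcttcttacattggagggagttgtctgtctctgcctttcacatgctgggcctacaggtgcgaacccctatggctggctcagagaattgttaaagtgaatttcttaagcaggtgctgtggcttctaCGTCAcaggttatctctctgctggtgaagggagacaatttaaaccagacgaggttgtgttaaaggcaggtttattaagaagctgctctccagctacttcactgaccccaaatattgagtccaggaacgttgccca
Rcc1: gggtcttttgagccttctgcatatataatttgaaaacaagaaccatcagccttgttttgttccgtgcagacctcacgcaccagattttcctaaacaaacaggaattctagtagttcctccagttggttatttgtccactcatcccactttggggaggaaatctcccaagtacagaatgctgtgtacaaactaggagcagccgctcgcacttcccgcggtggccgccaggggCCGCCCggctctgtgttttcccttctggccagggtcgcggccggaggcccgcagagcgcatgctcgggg
Rangap1: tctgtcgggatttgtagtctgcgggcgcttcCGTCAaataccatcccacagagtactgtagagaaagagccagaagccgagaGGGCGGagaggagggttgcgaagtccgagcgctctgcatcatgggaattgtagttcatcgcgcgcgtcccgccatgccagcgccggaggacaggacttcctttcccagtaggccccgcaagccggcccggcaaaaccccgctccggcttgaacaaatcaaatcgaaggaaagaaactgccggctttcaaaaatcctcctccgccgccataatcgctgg

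TGACG or its complement stood in 18 of the 49 member promoters, 36.7%, and in 20.8% of all 32851 promoters of the RefSeq table. GGGCGG stood in 32 of 49, 65.3%, against 35.7% of all promoters. CCAAT stood in 25 of 49, 51.0%, against 37.4%. The full cAMP response element TGACGTCA, which contains TGACG on both strands, stood in 2, those of Nup133 and Nup214, and in 1.79% of all promoters. These are counts of letters in a window, and no binding was measured. The promoters of Nup160, Ipo13 and Thoc7, which also fell in KI, hold no TGACG. These letters were therefore not shared by all members that fell.

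Values are normalized counts, reads divided by a size factor for each library, and differences are log2 fold changes of KI against WT on log2(normalized count + 1), tested with limma across all 15389 genes with Benjamini-Hochberg adjustment. A gene was called differentially expressed where it reached 1.5-fold and its adjusted p was under 0.05. Each library had between 12722086 and 16422347 reads on genes, and the least abundant member had at least 27 reads in every library, so that no member was near the limit of 3 reads that a count of 0 allows (counting error only). Libraries 1 to 3 of each genotype differ from libraries 4 and 5 in mean read quality in the study's alignment summary, and the called genes are therefore also given within these sets. Ddx25, the mouse gene of GRTH, was lower in every KI library: 5198 to 11101 in WT, 146, 194 and 161 in KI libraries 1 to 3, and 2.88 and 1.84, which are 3 reads or fewer, in KI libraries 4 and 5. The KI mice carry the human gene, and reads were aligned to the mouse genome. This row is therefore not a measure of GRTH transcripts in KI. All 8 markers of elongating spermatids, protamines and transition proteins among them, fell in KI, with log2 fold changes of −3.30 to −1.85, and their summed level was 235316 to 421429 in WT and 35135 to 68599 in KI. Of 8 round spermatid markers 4 fell at an adjusted p under 0.05, with all 8 below 0, and 7 did with the replicate number as a block. Of these 8 only 1, Crem, reached 1.5-fold as well and was called. Of 8 markers each of spermatogonia and of spermatocytes, 0 were called and 1 fell at an adjusted p under 0.05. Among all genes 22.9% passed the adjusted p and 14.4% were called. Of markers of cells outside the germ line, 4 of 7 of Leydig cells, 5 of 9 of macrophages, 2 of 5 of endothelium and 2 of 4 of myoid cells were called higher in KI, and 6 of 7 of Leydig cells were with the block. For macrophages 1, Aif1, was called lower, and 0 of 8 of Sertoli cells were called, with 1 rising at an adjusted p under 0.05. The part of these cells in the differences below was not tested.

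Most nuclear transport genes differed little between genotypes. Of the 51, 2 were called differentially expressed, both lower in KI: Nup35, a nucleoporin of the inner ring, and Nup98, a repeat-bearing nucleoporin of the channel. That is 3.92%, against 14.4% of all genes tested, 8.22% lower and 6.13% higher. With the adjusted p alone, 7 members fell and 1 rose, 15.7%, against 22.9% of all genes, of which 13.3% fell and 9.65% rose. With the replicate number as a block 10 members fell and 2 rose, and 32.0% of all genes passed. The values of the 2 genotypes did not overlap for 6 members, 11.8%, against 17.7% of all genes: 5 lay lower in KI and 1 higher, where 10.9% and 6.80% of all genes did. The log2 fold changes of the members ran from −0.65 to 0.56 with a median of −0.02, and the median of all genes was 0.03. For 40 members (78.4%) the log2 fold change lay within 0.25 of 0, as it did for 55.4% of all genes.

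The scaling of the libraries moved the whole scale. Scaling to library totals shifted the median of all genes to 0.25 and upper quartile factors shifted it to 0.12. The members moved with it, to medians of 0.21 and 0.08, which left them 0.04 below the median of all genes under each of these scalings and under the authors' size factors. Under library totals 3 members (Nup160, Nup35 and Nup98) remained lower at an adjusted p under 0.05 and 17 were higher, against 7 and 1 under the authors' size factors. Under library totals 7.92% of all genes were lower and 32.6% higher. The 17 were Nup50, Nup85, Nup93, Nup107, Nup133, Kpna7, Kpnb1, Ipo7, Ipo9, Ipo11, Nxf1, Nxf2, Nxt1, Thoc2, Thoc3, Thoc5 and Thoc6. Nup35 and Nup98 then stood at −0.42 each, under 1.5-fold, and the member called was Kpna7.

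**Figure D1:**
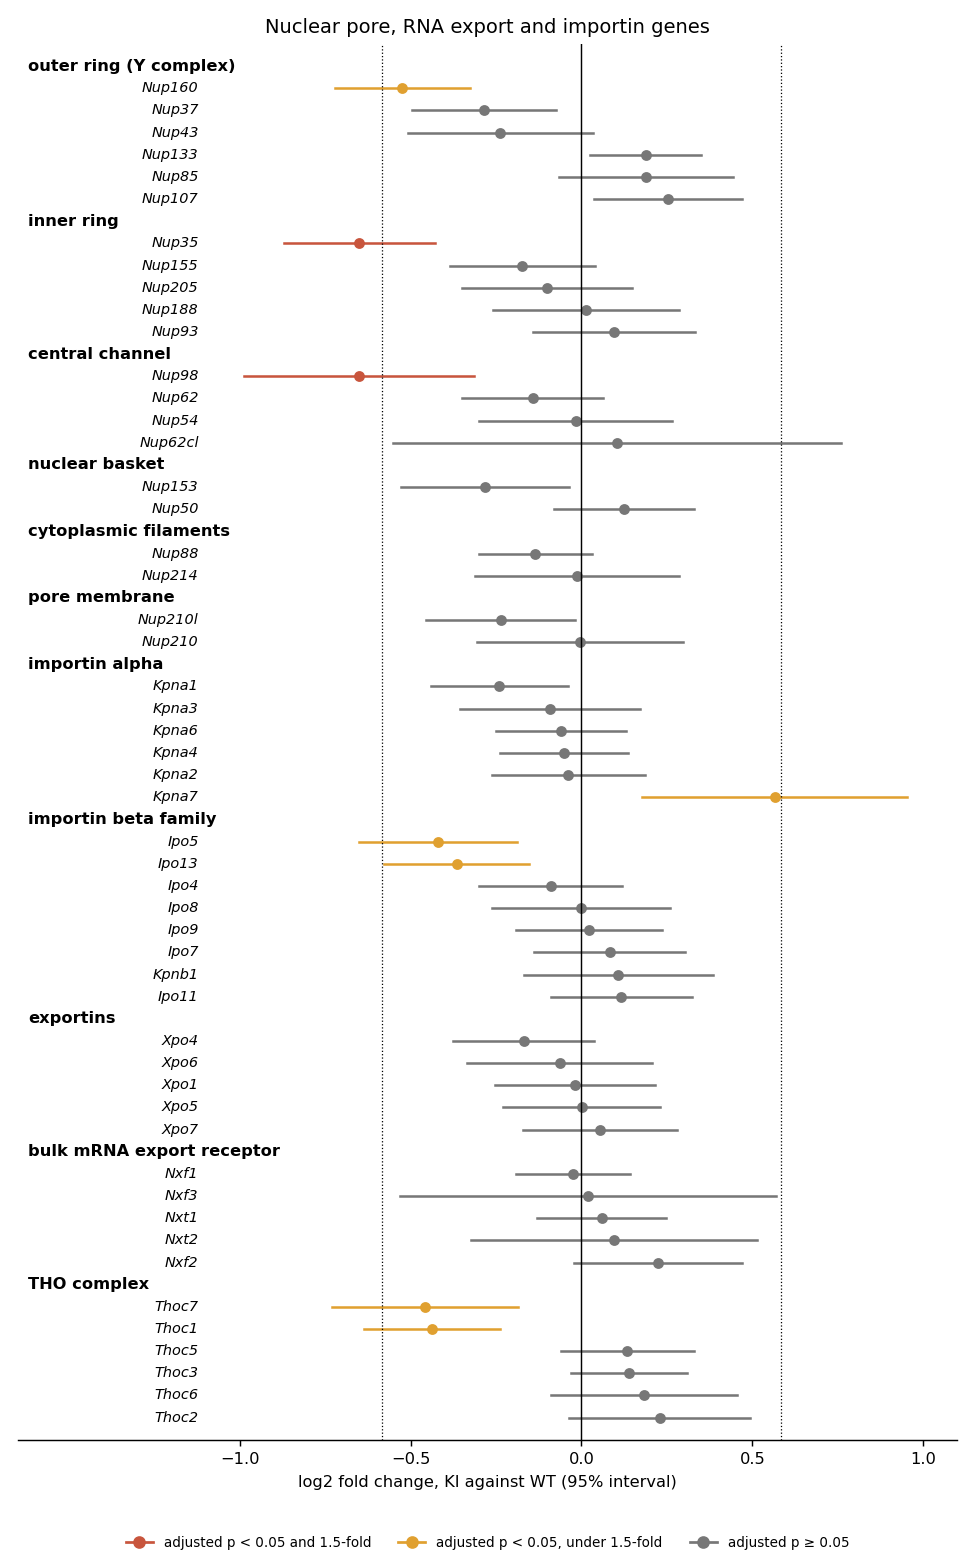
Log2 fold change of KI against WT for each of the 51 genes, grouped by role, with the 95% interval from the limma fit across 5 WT and 5 KI libraries. Dotted lines mark 1.5-fold. Nup35 and Nup98 lie past the lower line, and 40 of the 51 points lie within 0.25 of 0.

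In the inner ring, the scaffold that anchors the channel to the pore wall, Nup35 fell and its 4 partners did not pass the test across all libraries. Nup35 (chromosome 2, 80638812 to 80660071, plus strand), which ties the ring to the membrane, had normalized counts of 736, 777, 792, 780 and 637 in WT libraries 1 to 5. In KI libraries 1 to 5 they were 449, 544, 497, 489 and 398. Every KI library lay below every WT library. The mean went from 745 ± 63.6 to 475 ± 54.8 (SD, n = 5 each), and the log2 fold change was −0.65 ± 0.10 (SE; adjusted p = 3.09e-04), 36.3% less. The fall was −0.63 in libraries 1 to 3 (adjusted p = 6.20e-05) and −0.68 in libraries 4 and 5 (adjusted p = 0.0243). Of the words of 100 bases in Nup35 exons, 30.8% also occur in the gene model Gm4353, which has no row in the table, so that its reads could be split in the counting. Nup93, Nup155, Nup188 and Nup205, the larger scaffold proteins of the ring, had log2 fold changes of 0.09, −0.17, 0.01 and −0.10. In libraries 1 to 3 alone Nup155 and Nup205 passed as lower, at −0.30 (adjusted p = 0.0106) and −0.29 (adjusted p = 0.0243). In libraries 4 and 5 they had 0.02 (adjusted p = 0.957) and 0.17 (adjusted p = 0.502).

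Nup98 makes a channel protein that binds export factors, and its longer transcript encodes in addition Nup96, a subunit of the outer ring. Its gene lies on chromosome 7, 102119400 to 102210166, on the minus strand. Its normalized counts in WT libraries 1 to 5 ran 11182, 12462, 10760, 9600 and 11678. KI libraries 1 to 5 had 5948, 6013, 5475, 8838 and 10173. The first 3 KI libraries lay near each other and far below WT, the fourth lay just below the lowest WT library, and the fifth lay inside the WT range. The mean went from 11137 ± 1067 to 7289 ± 2088 (SD, n = 5 each), and the log2 fold change was −0.65 ± 0.16 (SE; adjusted p = 0.00758). Without KI library 3 it was −0.56, and Nup98 was no longer called. No word of 100 bases in its exons occurs in another gene model.

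The fall of Nup98 was −0.98 in libraries 1 to 3 (adjusted p = 5.55e-08) and −0.16 in libraries 4 and 5 (adjusted p = 0.588). The difference between these effects, the interaction of genotype with library set, was 0.82 ± 0.16 (SE; adjusted p = 0.0411), and Nup98 was the only member past 0.05 in that test, where 0.247% of all genes (38) passed. The adjusted p of this difference was 0.0519 under library totals and 0.0628 under upper quartile factors, and between 0.0639 and 0.275 without any 1 of WT libraries 1, 2 and 4 and KI libraries 1, 2, 3 and 5. The other channel genes did not pass the genotype test. Nup62 and Nup54, which with the product of Nupl1 form the core of the channel, had log2 fold changes of −0.14 and −0.02, and Nup62cl, a relative of Nup62 with normalized counts of 29.4 to 106, had 0.11 ± 0.31 (SE).

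The outer ring, or Y complex, coats the membrane around the pore on both faces. Nup160, at the head of the Y (chromosome 2, 90677215 to 90736328, plus strand), had normalized counts of 737, 798, 664, 683 and 735 in WT and 469, 460, 502, 514 and 571 in KI. The genotypes did not overlap, and the log2 fold change of −0.52 ± 0.09 (SE; adjusted p = 7.39e-04) stayed under 1.5-fold. It was −0.62 in libraries 1 to 3 (adjusted p = 8.59e-05) and −0.39 in libraries 4 and 5 (adjusted p = 0.130). Nup37, which sits beside Nup160 in the Y, was 363 to 431 in WT and 294 to 356 in KI, again without overlap, with a log2 fold change of −0.29 (adjusted p = 0.0507). Nup107, in the stem of the Y, was 449 to 585 in WT and 551 to 682 in KI, with a log2 fold change of 0.25 (adjusted p = 0.0859). With the replicate number as a block the adjusted p was 0.0263 for Nup37 and 0.0239 for Nup107, so that both passed there. The other subunits, Nup43, Nup85 and Nup133, had −0.24, 0.19 and 0.19, and Nup85, Nup107 and Nup133 were higher at an adjusted p under 0.05 under library totals. Of these 6 genes, Nup160 alone passed under the authors' size factors without the block, and the other 5 lay on both sides of 0. Nup96, also of the outer ring, is encoded by Nup98 and was counted there.

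The remaining nucleoporins, which form the nuclear basket, the cytoplasmic filaments and the membrane ring, gave no call. Nup153, a basket protein that binds importins, was 5557 to 7603 in WT and 4663 to 6588 in KI, with a log2 fold change of −0.28 (adjusted p = 0.0921). It was −0.52 in libraries 1 to 3 (adjusted p = 9.69e-05) and 0.07 in libraries 4 and 5 (adjusted p = 0.828). Nup50, its partner in the basket, had 0.12. Nup88 and Nup214, on the cytoplasmic side where RNA is released, had −0.14 and −0.01, and Nup210 in the membrane ring had −0.0047. Nup210l, a testis relative of Nup210, had 2830 to 3605 in WT and 2527 to 3354 in KI, a log2 fold change of −0.24 (adjusted p = 0.111, and 0.0252 with the block). A further 12 pore proteins named by other symbols (Nupl1, Nupl2, Ndc1, Pom121, Pom121l2, Seh1l, Sec13, Ahctf1, Rae1, Aaas, Tpr and Gle1) had log2 fold changes of −0.15 to 0.10, and 0 of the 12 passed, either by limma's adjusted p or at an unadjusted p under 0.05. Under library totals 3 of the 12 (Pom121l2, Rae1 and Aaas) passed as higher. Gle1, which activates the helicase at the pore exit, had −0.04, and 0.19 under library totals.

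**Figure D2:**
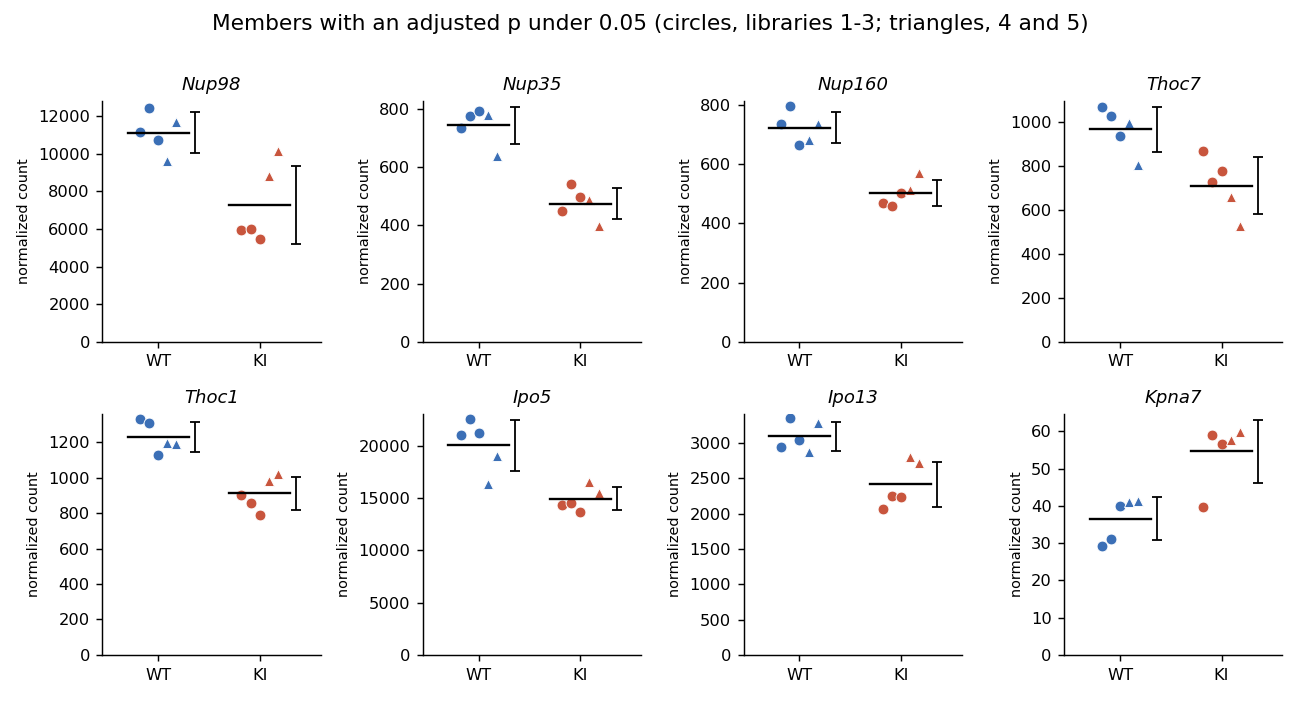
Normalized count in each library for the 8 members with an adjusted p under 0.05, each panel from 0, with the mean as a bar and the SD as a bracket (n = 5). Circles are libraries 1 to 3 and triangles libraries 4 and 5. For Nup98, Nup160, Ipo5, Ipo13 and Thoc1 the KI triangles lie above the KI circles, whereas for Nup35 and Thoc7 the lowest KI value is a triangle.

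Among the importin alphas, the adaptors that read the classical nuclear localization signal, Kpna7 rose and the other 5 did not pass. Kpna7 (chromosome 5, 144983727 to 145009636, minus strand), known as the form of oocytes and early embryos, had normalized counts of 29.3, 31.2, 39.9, 41.1 and 41.4 in WT. In KI they were 39.8, 59.1, 56.6, 57.7 and 59.8. KI library 1 lay within the WT range and the other 4 above it. The log2 fold change was 0.56 ± 0.18 (SE; adjusted p = 0.0354), and it passed in neither set of libraries alone (0.61, adjusted p = 0.0657, and 0.50, adjusted p = 0.314). The adjusted p was above 0.05, between 0.0622 and 0.0883, without any 1 of WT libraries 1 and 2 and KI libraries 2 to 5. Kpna7 was the least abundant member, at 14.2 normalized counts per kb of exon in WT. Kpna1 had −0.24 (adjusted p = 0.0790, and 0.0381 with the block). Kpna2, Kpna3, Kpna4 and Kpna6 had −0.04, −0.09, −0.05 and −0.06 (adjusted p of 0.647 to 0.838), and all 4 stood above 0 under library totals, at 0.14 to 0.19, below the median of all genes there. Kpna2, at 2493 normalized counts per kb in WT, was the most abundant of them, and 56.8% of the words of 100 bases in its exons occur in other gene models.

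In the importin beta family, the carriers themselves, 2 of 8 fell, both by less than 1.5-fold. Ipo5, a carrier of ribosomal proteins and histones (chromosome 14, 120911194 to 120948044, plus strand), had 21063, 22586, 21184, 16307 and 18986 in WT and 14301, 14550, 13694, 16500 and 15480 in KI. Only WT library 4 reached into the KI range. The log2 fold change was −0.42 ± 0.11 (SE; adjusted p = 0.0110), with −0.61 in libraries 1 to 3 (adjusted p = 1.32e-05) and −0.14 in libraries 4 and 5 (adjusted p = 0.640). Ipo13, a carrier that works in both directions (chromosome 4, 117894493 to 117914999, minus strand), had 2947, 3349, 3040, 2871 and 3279 in WT and 2073, 2248, 2239, 2801 and 2720 in KI. Its genotypes did not overlap, although KI library 4 came close to WT library 4. The log2 fold change was −0.37 ± 0.10 (SE; adjusted p = 0.0152), with −0.51 in libraries 1 to 3 (adjusted p = 7.83e-05) and −0.15 in libraries 4 and 5 (adjusted p = 0.548). Under library totals Ipo5 and Ipo13 no longer passed (−0.19, adjusted p = 0.0840, and −0.14, adjusted p = 0.189). None of the other 6 passed here, though Kpnb1, Ipo7, Ipo9 and Ipo11 were higher at an adjusted p under 0.05 under library totals. Kpnb1, the partner of the importin alphas, had 0.11, and Ipo4, Ipo7, Ipo8, Ipo9 and Ipo11 had −0.09 to 0.12.

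None of the 5 exportins passed by limma, either by the adjusted p or at an unadjusted p under 0.05. Xpo1, which carries proteins with leucine-rich export signals and some RNAs, was 1317 ± 200.3 in WT and 1293 ± 119 in KI (SD, n = 5 each), with a log2 fold change of −0.02 and a 95% interval of −0.25 to 0.22. Xpo5, the exporter of microRNA precursors, had a 95% interval of −0.23 to 0.23. Xpo4, Xpo6 and Xpo7 had −0.17, −0.06 and 0.05. In libraries 1 to 3 alone Xpo4 and Xpo6 passed, at −0.33 (adjusted p = 0.00559) and −0.25 (adjusted p = 0.0188).

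The receptor for bulk messenger RNA and its relatives gave no call under the authors' size factors, whereas 3 of the 5 were higher at an adjusted p under 0.05 under library totals. Nxf1, the receptor itself, was 1992 ± 42.4 in WT and 1959 ± 131 in KI (SD, n = 5 each), and the log2 fold change was −0.03 (95% interval −0.19 to 0.14; adjusted p = 0.854). Under library totals Nxf1, Nxt1 and Nxf2 stood at 0.20 (adjusted p = 0.0314), 0.29 (adjusted p = 0.00992) and 0.45 (adjusted p = 0.0154), beside the median of all genes of 0.25. Nxt1, the cofactor of Nxf1, had 0.06 (adjusted p = 0.688) and stood among the most abundant members per length, at 2449 normalized counts per kb in WT. The relatives Nxf2 and Nxf3 and the cofactor Nxt2, on the X chromosome, had 0.22 (adjusted p = 0.184), 0.02 (adjusted p = 0.970) and 0.09 (adjusted p = 0.781). Nxf3 counts were 181 to 347 in WT and 140 to 383 in KI, with 289 to 383 in KI libraries 1 to 3 and 140 and 167 in KI libraries 4 and 5. This spread leaves its 95% interval at −0.53 to 0.57, too wide to place the difference on either side of 0.

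The THO complex loads export adaptors onto transcripts as they are made, and its 6 subunits did not move together. Thoc1 had 1333, 1308, 1129, 1196 and 1189 in WT and 904, 858, 791, 982 and 1023 in KI, without overlap. Its log2 fold change was −0.44 ± 0.09 (SE; adjusted p = 0.00315), with −0.56 in libraries 1 to 3 (adjusted p = 1.21e-04) and −0.25 in libraries 4 and 5 (adjusted p = 0.289). In its exons 21.5% of the words of 100 bases occur in the neighbouring gene Usp14, which had a log2 fold change of −0.09 (adjusted p = 0.578). Thoc7 (chromosome 14, 13949012 to 13961852, minus strand) had 1069, 1027, 938, 997 and 806 in WT and 870, 727, 775, 657 and 525 in KI. Only WT library 5 and KI library 1 crossed. Its log2 fold change was −0.46 ± 0.13 (SE; adjusted p = 0.0169), and unlike that of Thoc1 it passed in both sets of libraries, at −0.36 (adjusted p = 0.00624) and −0.61 (adjusted p = 0.0378). Under library totals Thoc1 and Thoc7 stood at −0.21 and −0.23 and did not pass (adjusted p of 0.0603 and 0.196).

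The other THO subunits stood above 0. Thoc3 had 493 to 528 in WT and 535 to 582 in KI, without overlap and with a log2 fold change of 0.14 (adjusted p = 0.237). Thoc2, the scaffold of the complex, had 0.23 (adjusted p = 0.209), Thoc5 0.13 (adjusted p = 0.329) and Thoc6 0.18 (adjusted p = 0.341). Under library totals these 4 passed as higher, at 0.36 to 0.46 (adjusted p of 0.00294 to 0.0294), which is 0.11 to 0.20 above the median of all genes there. Summed over the 6 subunits, the level was 4435 to 4851 in WT and 4186 to 4596 in KI.

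Per kb of exon, no member moved by more than 5 places between the orders of the 2 genotypes. Ipo5 was the most abundant, at 4432 ± 541 normalized counts per kb in WT and 3299 ± 243 in KI (SD, n = 5 each). Kpna2, Nxt1, Ipo4 and Nup205 followed in WT at 2493, 2449, 1789 and 1438, where Kpna2 and Nxt1 lay within each other's spread. Nup98, at 1359 ± 130 in WT, went to 889 ± 255 in KI, from rank 7 to rank 12 of the 51. Ipo4 shares 49.4% of its words of 100 bases with the gene model Gm49378, so that its level is uncertain.

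**Figure D3:**
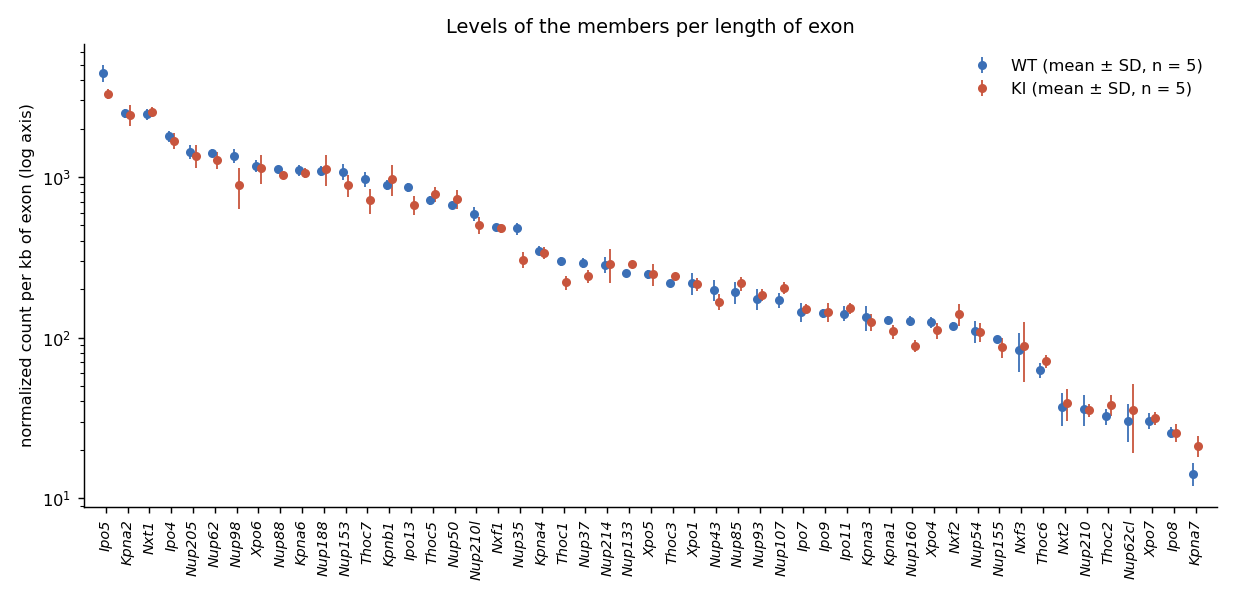
Normalized count per kb of exon on a log axis for the 51 genes in order of the WT level, with WT and KI means and SD (n = 5 each). The levels run from 4432 for Ipo5 to 14.2 for Kpna7 in WT, and for most genes the SD bars of the genotypes overlap.

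The values of the members were also taken within each set of libraries. With the 1.5-fold threshold 4 members were called in libraries 1 to 3 (Nup98, Nup160, Nup35 and Ipo5), where 15.8% of all genes were, and 2 in libraries 4 and 5 (Nup35 and Thoc7), where 10.1% were. In libraries 1 to 3 alone the median log2 fold change of the members was −0.10 and 17 passed at an adjusted p under 0.05, 33.3% of the 51 against 31.3% of all genes. Of these 16 fell and 1, Nxf2, rose. In libraries 4 and 5 alone the median was 0.08 and 2 passed, where 11.0% of all genes passed. The effect in libraries 4 and 5 was the higher one for 37 members (72.5%), against 50.6% of all genes. It was so for all 13 importin betas and exportins, 5 of 6 importin alphas, 2 of 2 basket genes and 2 of 2 filament genes. In each of the remaining roles the share was 50% or 60%. Nup98 alone passed the test of that difference, and these counts of signs were not themselves tested. The reads of all 51 members took 0.777% to 0.829% of the reads on genes in the 5 WT libraries and in KI libraries 1 to 3, and 0.878% and 0.942% in KI libraries 4 and 5. The mean read quality differs between the sets, and its part in these values was not tested.

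**Figure D4:**
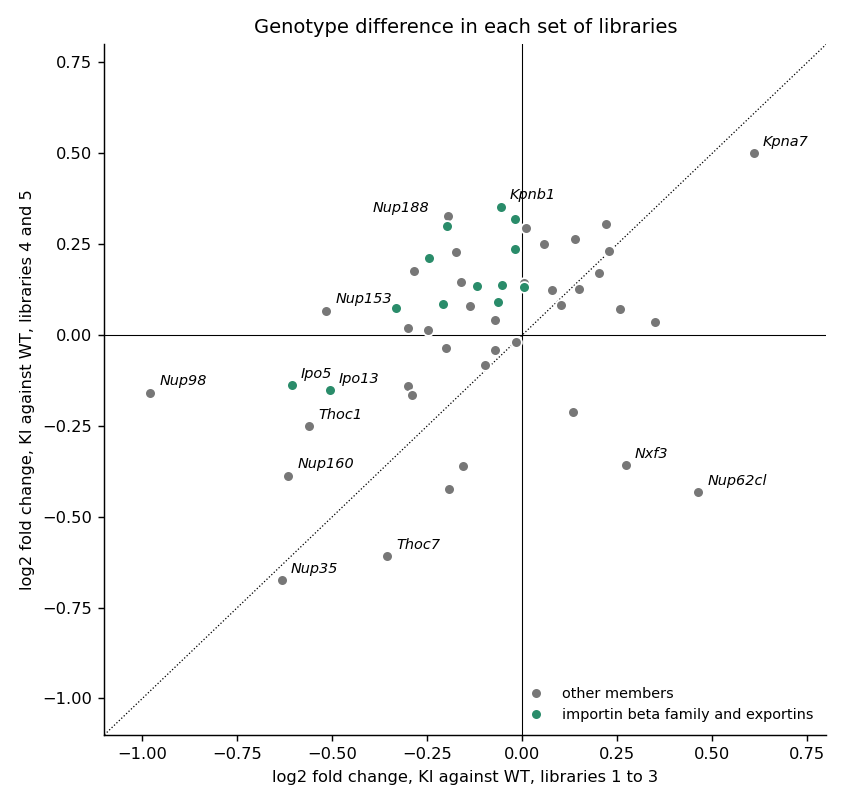
Log2 fold change of KI against WT within libraries 1 to 3 (horizontal) and within libraries 4 and 5 (vertical) for each of the 51 genes, with the dotted line where both are equal. Above the line lie 37 of the 51, among them all 13 importin betas and exportins. Nup98 lies at −0.98 and −0.16, and Nup35 lies close to the line.

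Of 49 partner genes of nuclear transport and messenger RNA export, 5 were called, 4 lower and 1 higher, 10.2% against 14.4% of all genes, and 8 passed by the adjusted p alone, 16.3% against 22.9%. The 4 lower include Ddx25, the targeted gene, whose row does not measure transcripts of the human gene in KI. Apart from Ddx25, the largest falls were in the Ran cycle. Rcc1, which charges Ran with GTP on chromatin (chromosome 4, 132331919 to 132345750, minus strand), had 2600, 2825, 3356, 2897 and 2461 in WT and 871, 956, 891, 930 and 745 in KI. Every KI library lay far below every WT library. The log2 fold change was −1.68 ± 0.10 (SE; adjusted p = 3.91e-08), 3.21-fold lower, and it was −1.68 in each set of libraries. Rangap1, which makes Ran spend its GTP in the cytoplasm (chromosome 15, 81704248 to 81729919, minus strand), had 4197, 4844, 5264, 3426 and 4201 in WT and 1710, 1875, 1848, 1928 and 1846 in KI. Again the genotypes were far apart, with a log2 fold change of −1.24 ± 0.11 (SE; adjusted p = 9.92e-07), 2.36-fold lower, and −1.39 and −1.01 in the 2 sets.

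Ran itself was 7691 to 10650 in WT and 6963 to 9659 in KI, with a log2 fold change of −0.03 (adjusted p = 0.904), and 0.20 under library totals. The transcripts of the 2 enzymes that act on the Ran nucleotide were thus lower, while the transcript of Ran was not called. Only RNA was measured for these genes. Ranbp3, a cofactor of Xpo1, rose by 0.35 (adjusted p = 0.0478), and the call was lost under TMM factors (adjusted p = 0.0517) and without any 1 of WT libraries 1 to 3 and KI libraries 2, 4 and 5. Ranbp1, Ranbp2, Rangrf and Nutf2 did not pass, with 0.09, 0.01, −0.26 and 0.16, although with the block Rangrf did (adjusted p = 0.0136, against 0.0874), and under library totals Ranbp1 did, at 0.32 (adjusted p = 0.0120).

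**Figure D5:**
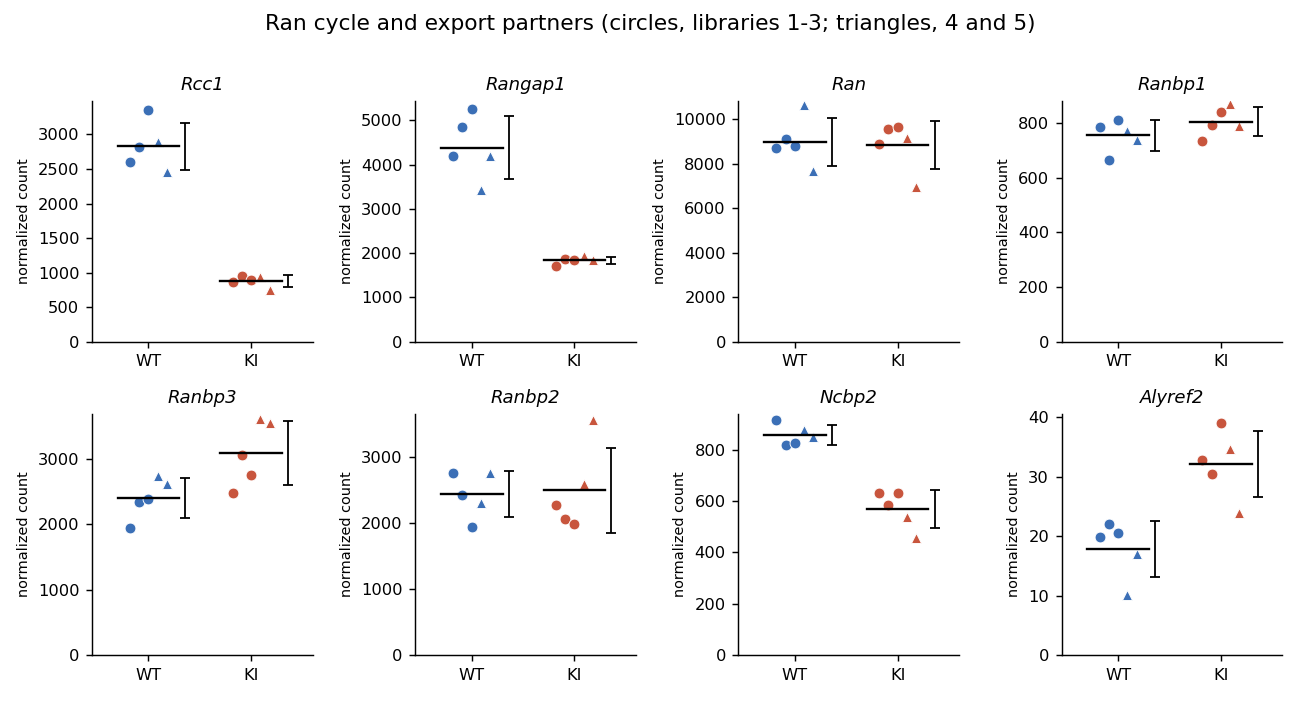
Normalized count in each library for 8 partner genes, each panel from 0, with the mean as a bar and the SD as a bracket (n = 5). Rcc1, Rangap1 and Ncbp2 separate the genotypes, with KI lower, whereas the KI points of Ran, Ranbp1 and Ranbp2 overlap the WT points.

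Of the other export partners, Ncbp2, the small subunit of the nuclear cap-binding complex, had 917, 821, 829, 880 and 850 in WT and 633, 586, 631, 539 and 458 in KI. The genotypes did not overlap, and the log2 fold change was −0.60 ± 0.10 (SE; adjusted p = 4.64e-04), close to the 1.5-fold threshold. It was −0.47 in libraries 1 to 3 (adjusted p = 4.77e-04) and −0.80 in libraries 4 and 5 (adjusted p = 0.00544). Ncbp2 kept an adjusted p under 0.05 but fell short of 1.5-fold under library totals (−0.37), under upper quartile factors (−0.51), in libraries 1 to 3, and when WT library 1 (−0.58), KI library 4 (−0.58) or KI library 5 (−0.53) was left out. Its partner Ncbp1 had 0.0018. Alyref2, a close relative of the export adaptor Alyref, had 19.9, 22.0, 20.5, 10.0 and 16.9 in WT and 32.7, 30.4, 39.1, 34.6 and 23.9 in KI, with KI above WT throughout. Its log2 fold change was 0.84 ± 0.24 (SE; adjusted p = 0.0209), lost without KI library 3 (adjusted p = 0.0594). It passed in neither set of libraries alone (0.68, adjusted p = 0.0596, and 1.08, adjusted p = 0.152). For Alyref2 45.6% of the words of 100 bases in exons occur in the gene model B930036N10Rik. Alyref and the helicase Ddx39b, which loads it, had 0.21 (adjusted p = 0.171) and 0.17 (adjusted p = 0.205), and both passed under library totals, at 0.44 (adjusted p = 0.00914) and 0.40 (adjusted p = 0.00728). Poldip3, another factor that joins this complex, rose by 0.28 (adjusted p = 0.0416), and the call was lost without any 1 library but WT libraries 4 and 5 and KI library 1.

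Ranbp6, a relative of Ipo5, fell by 0.36 on the log2 scale (adjusted p = 0.0408), with −0.58 in libraries 1 to 3 and −0.03 in libraries 4 and 5, and the call was lost under library totals (−0.13, adjusted p = 0.336), under upper quartile factors (adjusted p = 0.102), and without any 1 library but WT libraries 4 and 5 and KI library 5. Ddx19a, a helicase that releases RNA at the pore, had 0.39 (adjusted p = 0.0518, 0.0451 with the block and 0.00357 under library totals), with KI above WT in every library. Of its words of 100 bases 19.3% are shared with Ddx19b, which was far more abundant, at 3207 to 3747 in WT and 3754 to 4027 in KI. Ddx19b thus also lay higher in every KI library, with 0.18 (adjusted p = 0.116). The part of shared reads in the value of Ddx19a was not tested.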

How the data were processed

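Germ cells of 5 WT and 5 homozygous GRTH-KI mice gave 1 library each. After adapter trimming the authors used STAR to align reads to mm10, obtained gene counts on RefSeq genes in Partek (E/M model), and deposited a signal for each gene and library, a count divided by the DESeq2 size factor of the library. Dividing by the value of 1 read returned whole reads, within 0.1, for 100% of values under 5000 reads. Reads on genes numbered 12722086 to 16422347 per library.

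The deposited signal was tested as log2(value + 1) with limma 3.58.1 (R 4.3.3), with a variance trend. P-values were adjusted by Benjamini-Hochberg across 15389 genes, those that passed filterByExpr of edgeR 4.0.16, and genes were called at an adjusted p under 0.05 and 1.5-fold. The added 1 understates changes of low genes. In the main fit p-values measure the spread between libraries of a genotype, 1 per mouse. That spread includes counting error and any difference between the library sets. edgeR's quasi-likelihood test and DESeq2 1.42.0 on the recovered reads, other scalings, filters, pseudocounts and library sets were alternatives, and those for the interaction of genotype with library set were added after seeing the data. The fits were tested on simulated data with known changes. Of 200 changed genes limma recovered 197 in the genotype test, with 11 false calls, and 121 in the interaction test, with 6 false calls. Recovery at the sizes of change seen in the members was not tested. A member that did not pass the interaction test may therefore still differ between library sets.

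With genotype means removed, same-numbered WT and KI libraries had Pearson correlations of 0.306, 0.105, 0.280, 0.216 and 0.462. No other evidence pairs them, and same-numbered libraries also lie in the same library set. The correlations therefore do not show that mice were paired, and the number was a block in an alternative. The gene symbols and the lists of partners, roles and markers were chosen with earlier results of these data known. By the rule for named genes, each member is named by its role, with values in each library for called members, the log2 fold change and adjusted p for those past the adjusted p alone and for every importin alpha, Nxf, Nxt and Thoc gene, and values for the called partners and for Ran, Alyref, Ddx39b, Gle1, Ddx19a and Ddx25. All other values of single genes were added after they were seen. Exon lengths and shared words of 100 bases come from GENCODE vM21 on the same build. Positions are those of the authors' table, with 1 subtracted from its ends, which matched RefSeq ends for 9615 genes against 646 otherwise. Whether strand was used in counting is not given in the sources used here, and overlapping genes may share reads.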

Additional observations from a re-analysis of the deposited data

Results flagged for a closer look

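For Nup98 the genotype effect in libraries 4 and 5 was higher than that in libraries 1 to 3 by 0.82 on the log2 scale, and this difference between the sets of libraries passed the interaction test (limma, adjusted p = 0.0411). For Ddx25, the targeted gene, the same difference was −6.25 (limma, adjusted p = 1.12e-10), where KI libraries 4 and 5 held 3 reads or fewer, so that its size depends on the pseudocount. In KI library 1 the normalized count of Kpna7 was 39.8, while the other 4 KI libraries lay between 56.6 and 59.8, a gap that Dixon's test at 95% set apart. It was the 1 such sample among 70 groups of 5 libraries examined, and chance sets apart about 1 in 20 groups.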

How the results depend on the processing

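The count of called members, 2, was 1 under library totals and under upper quartile factors (Kpna7 in each), 4 in libraries 1 to 3 alone (Ipo5, Nup160, Nup35 and Nup98) and 0 by limma at a fold change of at least 2, with 14 members at an unadjusted p under 0.05; leaving out 1 library gave 1 to 3. By edgeR's quasi-likelihood test and by DESeq2 it was 2. The count at an adjusted p under 0.05, 8, was 20 under library totals, 13 with a term for the library set, 17 in libraries 1 to 3 and 2 in libraries 4 and 5, 4 at an adjusted p under 0.01, and 7 to 11 without 1 library. With the replicate number as a block it was 12 (10 lower, 2 higher), where Kpna1, Nup107, Nup210l and Nup37 passed as well. Among partners it brought in Rangrf, Ddx19a and Ddx3x, and among the marker lists 3 of round spermatids, 3 of Leydig cells, 2 of spermatogonia and 1 of macrophages. It changed no other call among members and partners. The median of the members, −0.02, was 0.21 under library totals, 0.076 under upper quartile factors, −0.10 in libraries 1 to 3 and 0.079 in libraries 4 and 5, and −0.057 to 0.0043 without 1 library. The count of called partners, 5, was 3 in libraries 1 to 3 and 3 at a fold change of at least 2, and 4 to 5 without 1 library. The count of members whose effect differed between library sets, 1, was 0 under library totals and under upper quartile factors, where limma gave 11 and 13 members an unadjusted p under 0.05, and 0 to 3 without 1 library.

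Among named genes that did not pass, Kpna2, Kpna3, Kpna4, Kpna6, Nxf1, Gle1 and Ran turned above 0 under library totals (0.19, 0.14, 0.18, 0.17, 0.20, 0.19 and 0.20) and under upper quartile factors (0.055, 7.2e-04, 0.043, 0.034, 0.067, 0.058 and 0.068). Nxf1 passed under library totals (adjusted p = 0.0314). In libraries 4 and 5 Kpna2, Kpna4, Nxf1 and Gle1 turned to 0.15, 0.079, 0.042 and 0.036 and Nxf3 to −0.36, and in libraries 1 to 3 Ran turned to 0.077. Without 1 library, the log2 fold changes that crossed 0 ranged from −0.14 to 0.22 for Nxf3, −0.071 to 0.19 for Nxt2, −0.080 to 0.058 for Ran, −0.062 to 3.2e-04 for Nxf1, −0.15 to 0.0043 for Kpna3, −0.10 to 0.011 for Kpna2 and −0.081 to 0.0056 for Gle1. The cause of these changes was not tested. All members had 27 or more reads in each library, far from a count of 0. Counting error still adds to the spread of the least abundant, such as Kpna7. The 5 libraries per genotype limit the precision for all members.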
